A study of Mus musculus with 2 samples.

Results

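The mRNAs of the cytosolic ribosome's proteins were examined by sequencing total RNA, depleted of ribosomal RNA, of the cytosolic fraction of C57BL/6J mouse macrophages grown from bone marrow. Members were all genes whose symbol has the form Rpl or Rps with a number, Rplp0 to Rplp2 or Rpsa, and which have a protein-coding transcript. The rule found 83 genes of 55536 annotated genes, and 4 further symbols matched the form but had no protein-coding transcript. The cells had received 100 ng/ml lipid A, the Toll-like receptor 4 agonist part of bacterial lipopolysaccharide, for 75 minutes. There was 1 group of 2 libraries, numbered replicates 1 and 2, each from 1 µg of RNA and with a size range of 250 to 400. Both carry 1 shared donor identifier, with no age or sex, and the labels do not say whether they were separate cultures, so the spread between them may be technical. No untreated cells, other times or other fractions were analysed here, so no value below is an effect of lipid A. With 1 group and n = 2 no test was made, and errors are the SD over the 2 libraries.

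A cytosolic ribosome has a small subunit, which reads the mRNA, and a large subunit, which joins the amino acids. Their proteins are needed in equal numbers, apart from the stalk proteins Rplp1 and Rplp2, which are present in several copies and recruit translation factors together with Rplp0. The mRNAs of these proteins begin, in mammals, with a run of pyrimidines at the capped end called the terminal oligopyrimidine (TOP) motif. Through it the kinase mTOR and the RNA-binding protein Larp1 control their translation. Mammalian genomes also hold many processed copies of these mRNAs, mostly pseudogenes, which can be near-identical to the parent gene. The 83 members were 30 small subunit genes, 43 large subunit genes, the 3 stalk genes and 7 paralogs, which are related genes with symbols ending in l, l1 or al. The first 3 sets make up 76 core members.

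Pyrimidine runs were looked for around the members' start sites in the reference. RefSeq promoter sequences (build GRCm38.p6) were matched by symbol for 63 of the 83 members. An unbroken run of at least 8 C or T, on the transcribed strand, lay within 20 bases before to 30 bases after an annotated start in 34 of the 63 members (54.0%). The same held for 5811 of all 27025 genes in the table (21.5%) and for 16 of 69 mitochondrial ribosomal protein genes (23.2%), which serve a different ribosome. The run covered the annotated start itself in 17 members (27.0%), in 4.59% of all genes and in 1 of 69 mitochondrial ribosomal protein genes. Printed below are the 6 longest runs that covered the start and fitted whole within 15 bases on either side, on chromosomes from which sequence is shown. Bases before the start counted toward a run, although an mRNA beginning at that start would not hold them. A run is therefore not itself a TOP motif. Capitals mark the run and the start is the base after the first 15.
Rpl7a (chr2:26910792-26910821, plus strand): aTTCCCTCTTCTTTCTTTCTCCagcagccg
Rpl35 (chr2:39005117-39005146, minus strand): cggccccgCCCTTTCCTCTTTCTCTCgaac
Rpl15 (chr14:18270972-18271001, minus strand): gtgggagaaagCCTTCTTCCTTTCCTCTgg
Rpl14 (chr9:120571502-120571531, plus strand): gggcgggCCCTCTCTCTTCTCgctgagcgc
Rpl35a (chr16:33056467-33056496, plus strand): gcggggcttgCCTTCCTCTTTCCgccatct
Rps10 (chr17:27635230-27635259, minus strand): gcgccgcgcacgCCCCTTCCTTTCCagcct
These letters describe the reference and not a measured start. Members with a run near the start had a median level of 167 TPM, and the 29 matched members without had 170 TPM. TPM is the deposited measure of transcript abundance, a level corrected for transcript length and scaled over all entries of the deposited table.

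Library totals over annotated genes were 55596625 expected counts, the authors' estimates of fragments per gene, in replicate 1 and 50157146 in replicate 2. All 8 macrophage markers passed 1 TPM, and none of 4 T cell, 3 B cell and 4 erythroid markers did. Their summed levels were 0.04 TPM in both libraries, 0.01 and 0.08 TPM, and 0.07 and 0.02 TPM. Of 6 neutrophil markers, 3 passed, and the list summed to 29.2 TPM in replicate 1 and 30.3 TPM in replicate 2. The libraries stood apart in RNAs known to stay in the nucleus: Malat1 was at 158 TPM in replicate 1 and 799 TPM in replicate 2, and all 5 measured RNAs of that list were over 1.5-fold higher in replicate 2. In bulk RNA, fewer cells of a type and less RNA per cell cannot be told apart.

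Nearly every ribosomal protein mRNA was abundant in the cytosol of these macrophages. A mean of 1 TPM or more was reached by 80 of 83 members, against 39.3% of nuclear-encoded protein-coding genes. A mean of 100 TPM was reached by 69 members, against 1.56% of those genes. Members made up 21 of the 100 most abundant nuclear-encoded protein-coding genes and 73 of the top 500. The members held 1.93% of TPM in replicate 1 and 1.52% in replicate 2, or 1.82% and 1.35% of the counts. Of the TPM of nuclear-encoded protein-coding genes alone they held 8.92% and 6.95%. Every core member passed 1 TPM, and the 3 genes below it were the paralogs Rpl39l, Rpl3l and Rpl10l.

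The most abundant member was Rpl41, which encodes the very short peptide of the large subunit, at 842 TPM in replicate 1 and 674 TPM in replicate 2. The zinc-binding small subunit protein gene Rps29 followed with 725 and 613 TPM, and the stalk gene Rplp1 with 585 and 538 TPM. The means were 758 ± 119 (SD, n = 2), 669 ± 79.7 (SD, n = 2) and 561 ± 33.2 TPM (SD, n = 2). Replicate 1 was the higher library for each of these, and their order was the same in both libraries. Rps28 was at 546 and 415 TPM, and Rps27 at 540 and 401 TPM. Rps12 was at 531 and 409 TPM, from 19971 and 13537 counts in place of which a second deposited quantification gave 849 and 503. These small subunit genes had means of 480, 471 and 470 TPM, and the order of Rps27 and Rps12 changed between libraries. Rpl10, whose protein sits near the site where peptide bonds form, was at 462 and 373 TPM, and its 31211 and 21222 counts were 3718 and 2876 in the second quantification. Rps24, a small subunit gene with several spliced forms, was at 438 and 364 TPM. Rpl23a, whose protein lies at the exit of the peptide tunnel, was at 430 and 307 TPM.

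**Figure D1:**
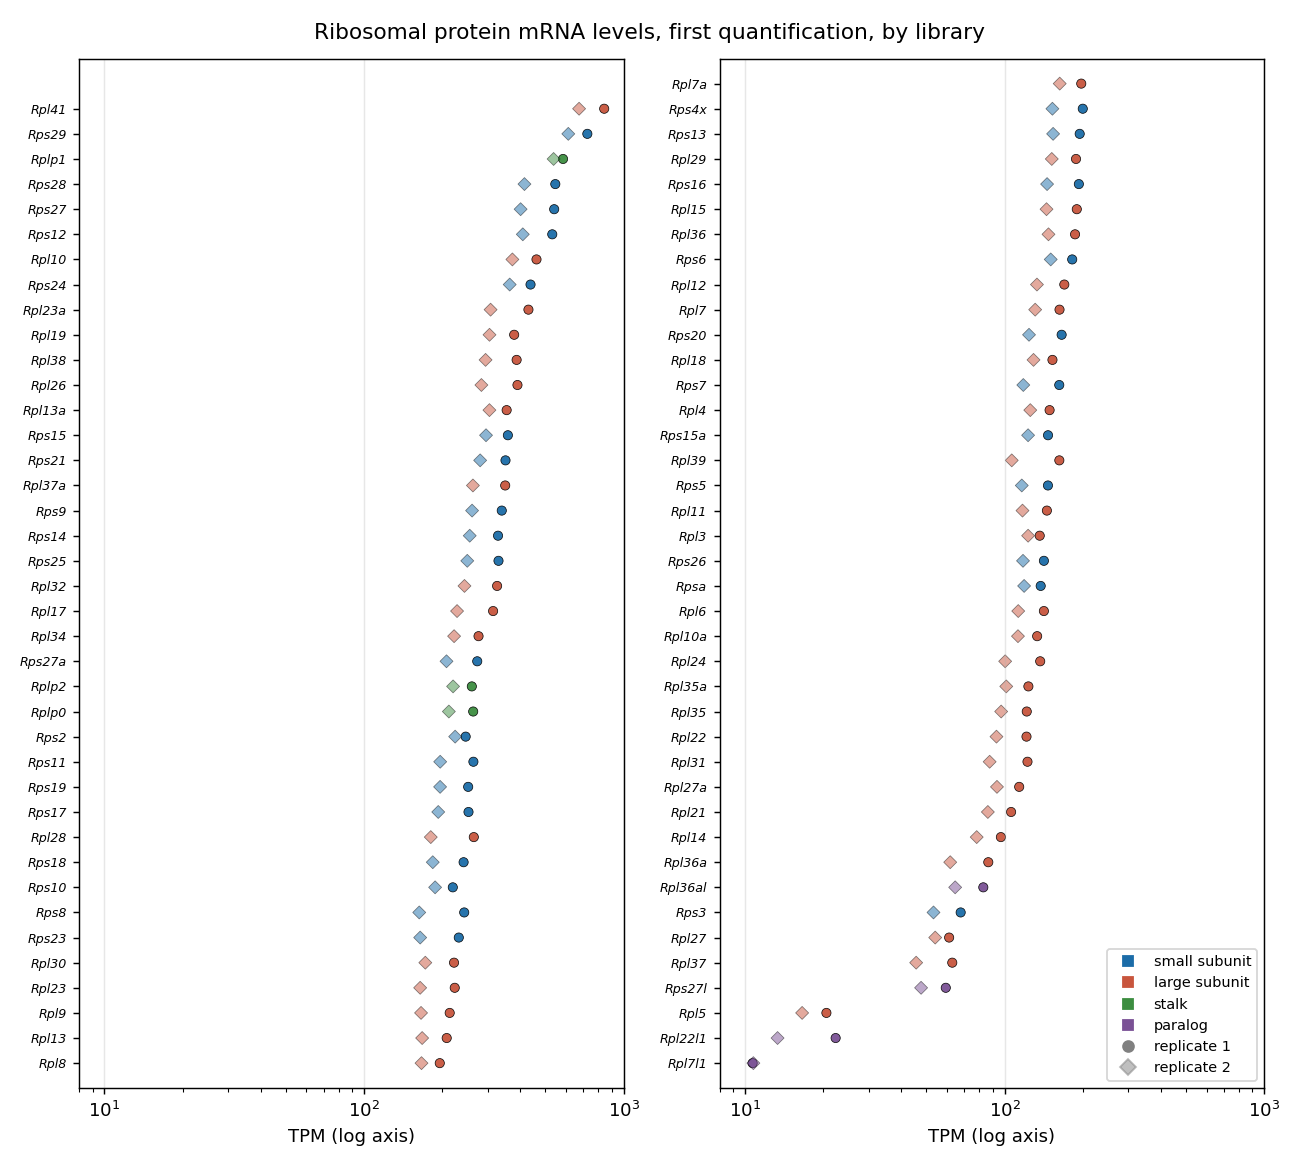
Level of 79 of the 80 members at a mean of 1 TPM or more (1 is not shown), in TPM on a log axis, with circles for replicate 1 and diamonds for replicate 2, ordered by mean and coloured by role. Rpl41 is highest at 842 and 674 TPM, 70 of the 76 core members lie within 3-fold of the core median, and every circle but that of Rpl7l1 is to the right of its diamond.

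The core members spanned a 40.8-fold range of mean TPM, but most were close together. The core median was 189 TPM, with 62 of 76 members within 2-fold of it and 70 within 3-fold. The SD of log2(TPM + 0.1) over the 76 core members was 0.88. Of the 6 core members outside 3-fold, 4 lay below. The lowest was Rpl5, whose protein carries the smallest ribosomal RNA of the large subunit with Rpl11, at 20.6 TPM in replicate 1 and 16.6 TPM in replicate 2. Rpl37 was at 62.9 and 45.7 TPM, Rpl27 at 61.2 and 54.1 TPM, and Rps3, which lines the mRNA entry channel, at 67.8 and 53.2 TPM. Rpl36a was next with 86.6 and 61.8 TPM. The levels of Rps12, Rpl10, Rpl5, Rpl27 and Rpl36a depend on how reads shared with a copy were assigned, as given with the copies below. Across the 76 core members, log2 TPM in replicate 1 and in replicate 2 had a Pearson r of 0.99. Log2 mean TPM and log2 effective length had an r of -0.58. This is across genes, which are not independent replicates, and TPM is itself a count divided by effective length.

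Small subunit genes were somewhat higher than large subunit genes at the median. The 30 small subunit genes had a median of 245 TPM in replicate 1 and 191 TPM in replicate 2. The 46 genes of the large subunit, stalk included, had 189 and 150 TPM. The difference in median log2(TPM + 0.1) was 0.37 in replicate 1 and 0.35 in replicate 2. No test was made of it, and it had the same sign in both libraries. The median effective length was 435 nucleotides for the small subunit genes and 524 for those of the large subunit, stalk included. The part of length in the difference was not tested. The stalk genes Rplp0, at 263 and 212 TPM, and Rplp2, at 260 and 220 TPM, lay above the core median in both libraries. Rplp1 was 2.36-fold above Rplp0 by mean TPM.

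The paralogs ranged from the level of their partner to no count. Rpl36al had 82.8 TPM in replicate 1 and 64.5 TPM in replicate 2, beside 86.6 and 61.8 TPM for Rpl36a, so it gave 48.9% and 51.1% of the pair's TPM and the order of the genes changed between libraries. The shares and order of this pair depend on how reads shared by Rpl36a and its copies were assigned. Rpl22l1 had 22.4 and 13.4 TPM, beside 121 and 93.1 TPM for Rpl22, an RNA-binding protein of the large subunit, and was 15.5% and 12.5% of that pair. Rps27l, known as a p53 target, had 59.4 and 47.7 TPM, 9.90% and 10.6% of its pair with Rps27. Rpl7l1 had 10.7 and 10.8 TPM, 6.17% and 7.59% of its pair with Rpl7. In these 4 pairs both genes were measured in both libraries. Rpl39l, known from testis, had 13 and 7 counts, 0.19 and 0.12 TPM, and was 0.117% and 0.112% of its pair with Rpl39. The muscle paralog Rpl3l had 1 and 3 counts. The testis paralog Rpl10l had 0 counts in both libraries, and 0 counts allow up to 3 counts per library, for counting error only. The only coding stretches of 31 bases shared by any 2 members were 8 between Rpl39 and Rpl39l.

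The members were lower in replicate 2 than in replicate 1, together. The ratio was computed as log2 of TMM-scaled counts with 0.5 added, for the 81 members with a mean count of 10 or more, called measured here. All 81 were lower in replicate 2, against 53.4% of the 11606 measured nuclear-encoded protein-coding genes. The members' median log2 ratio was -0.39, a fold of 0.764, and the ratios ran from -0.69 to -0.16. Over the nuclear-encoded protein-coding genes the median was -0.02, with quartiles at -0.17 and 0.16. Of those 11606 genes, 6.65% were at or below the members' median. The 95% Clopper-Pearson counting interval of the ratio lay below 0 for 80 of the 81, all but Rpl39l. Fragments are not independent molecules, so such an interval holds the counting error and nothing more. In the first quantification 3 members were over 1.5-fold lower in replicate 2 and 0 over 1.5-fold higher, against 2.81% lower and 5.24% higher in the background, 8.05% in all. In the second quantification 10 members passed 1.5-fold, with a median log2 ratio of -0.47. The share of all genes past 1.5-fold was not computed for the second quantification, so the 10 cannot be set against a background.

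Among members with a mean count of 100 or more, the lowest ratio was that of Rpl22l1, with 795 counts in replicate 1 and 429 in replicate 2, a log2 ratio of -0.69 (interval -0.87 to -0.52). Rpl39, whose protein lines the exit tunnel, had 7370 and 4079 counts and a ratio of -0.66 (-0.71 to -0.60). With Rpl39l, at 13 and 7 counts, these were the members past 1.5-fold. Rpl31 (-0.55), Rpl23a (-0.53) and Rpl36a (-0.53) followed. At the other end were Rpl7l1 at -0.16 (-0.24 to -0.08), Rplp1 at -0.17 (-0.20 to -0.14), Rps2 at -0.19, Rpl3 at -0.20 and Rplp2 at -0.21. The intervals of Rplp1 and Rpl39, genes picked from near the ends of the ratios, do not overlap. Whether all members moved by the same factor was not tested. The remaining stalk gene, Rplp0, was at -0.37. By role, the median was -0.40 for the small subunit (30 genes), -0.39 for the large subunit without the stalk (43 genes) and -0.21 for the stalk (3 genes).

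**Figure D2:**
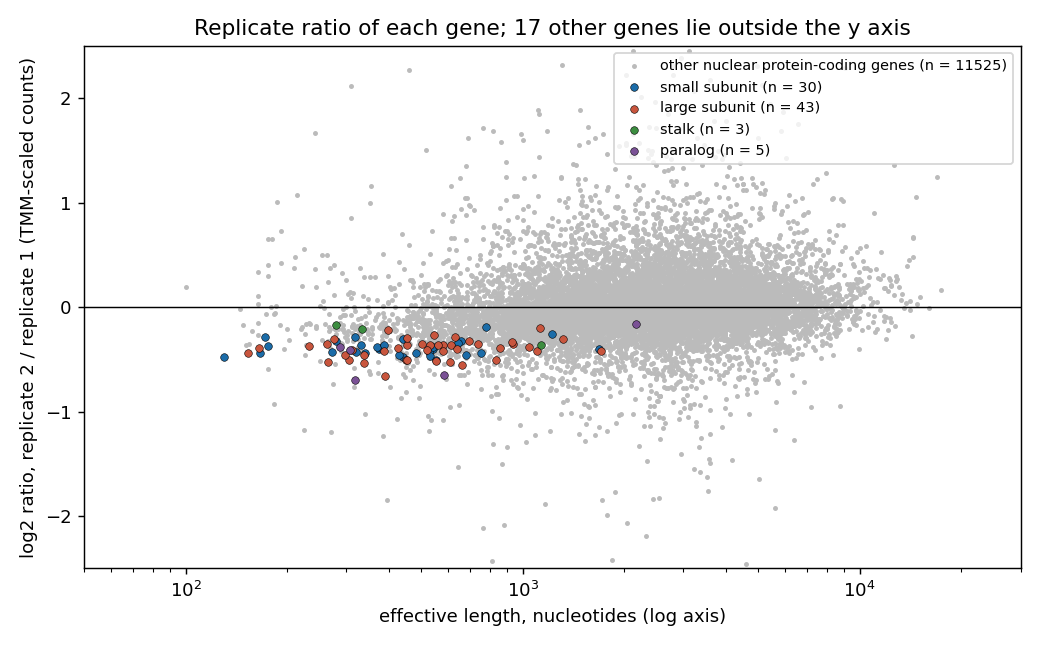
Log2 ratio of replicate 2 to replicate 1 (TMM-scaled counts) against effective length in nucleotides on a log axis, with grey points for other nuclear-encoded protein-coding genes and coloured points for the 81 measured members by role. All coloured points lie between -0.69 and -0.16, below the zero line, and 17 grey genes fall outside the axis.

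Short genes in general were lower in replicate 2, though by less at the median than the members. Other nuclear-encoded protein-coding genes of 300 to 600 nucleotides effective length had a median ratio of -0.18 (383 genes, 296 of them lower), and the 41 members of that length had -0.41. At 1000 to 2000 nucleotides the medians were -0.04 for 3167 other genes and -0.38 for 8 members. Below 300 nucleotides they were -0.16 for 94 other genes and -0.38 for 15 members. The part of length in the members' ratios was not tested beyond these values.

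Related genes outside the rule were lower in replicate 2 as well. The small subunit genes Fau and Rps3a1 and the ribosome-bound scaffold Rack1 had ratios of -0.43, -0.44 and -0.33. Among 18 other genes known as TOP mRNAs, 17 were lower, with a median of -0.29. The elongation factor gene Eef1a1 was at 1476 TPM in replicate 1 and 1293 TPM in replicate 2, a ratio of -0.30. Tpt1 (-0.33), Naca (-0.49) and the noncoding snoRNA host Gas5 (-0.62) were lower too. Eef1g (-0.07), Nap1l1 (-0.05) and Hnrnpa1 (0.00) of the same list were close to 0, and Snhg1 was at 0.38 with an interval of -0.02 to 0.78. Of 78 mitochondrial ribosomal protein genes, 68 were lower, with a median of -0.14. Of 22 genes of ribosome assembly and RNA polymerase I, 11 were lower and 11 higher, with a median of 0.00. These counts stand beside the 53.4% of the background. Of 8 regulators, 5 were lower in replicate 2, with a median of -0.11. Mtor was at 2.95 and 3.37 TPM, a log2 ratio of 0.24, and Larp1 had a log2 ratio of -0.13. Myc, a transcription factor known to drive ribosome production, was at 8.16 TPM in replicate 1 and 14.6 TPM in replicate 2 (log2 ratio 0.76).

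Other lists moved differently between the libraries. The 5 measured nuclear-retained RNAs had a median ratio of 2.17, and 6 of 8 macrophage markers were higher in replicate 2, with a median of 0.35. The 4 lipid A response genes (Tnf, Il1b, Nfkbia and Cxcl2) had a median of -0.02. Whether the amount of nuclear RNA in a library had a part in the members' ratios was not tested.

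**Figure D3:**
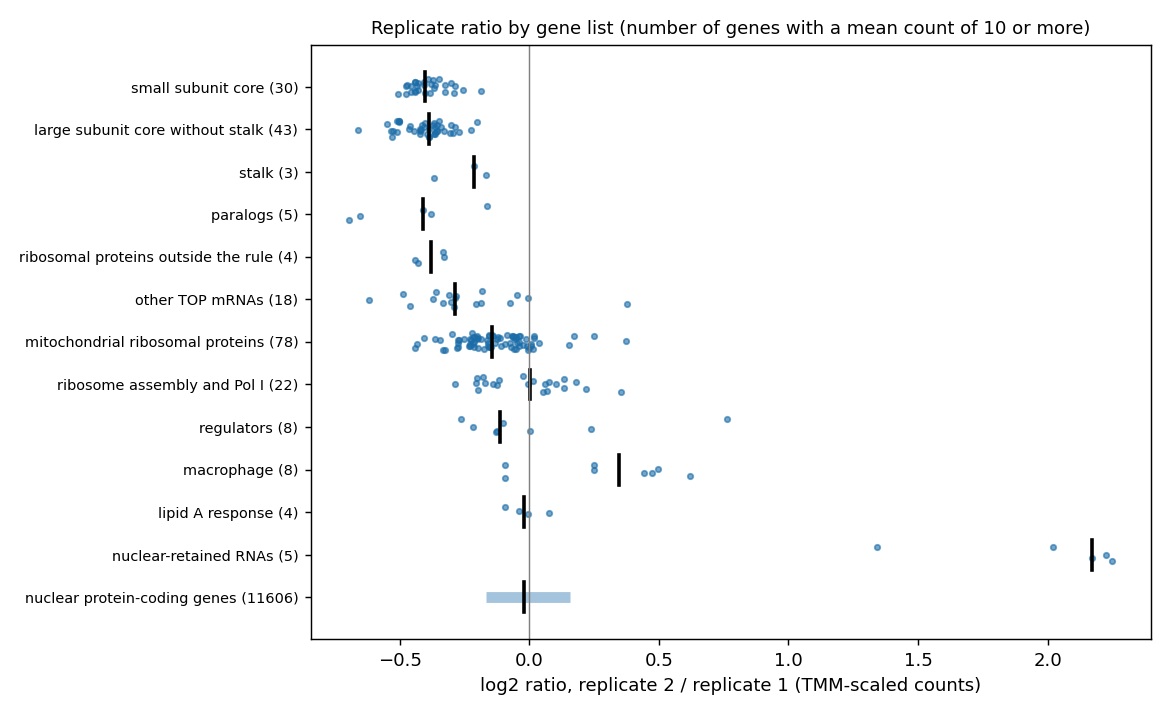
Log2 ratio of replicate 2 to replicate 1 (TMM-scaled counts) by gene list, with a point per measured gene, a black line at the median and, for all nuclear-encoded protein-coding genes, a bar between the quartiles. The ribosomal protein sets have medians from -0.41 (paralogs) to -0.21 (stalk), other TOP mRNAs -0.29, assembly genes 0.00 and nuclear-retained RNAs 2.17.

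The authors deposited a second quantification, made directly from the reads, and for most members it gave nearly the same count. The count ratio of the second to the first quantification was between 0.9 and 1.2 for 71 of 81 measured members in each library. For comparison of levels, TPM was rescaled over nuclear-encoded protein-coding genes. The members' median log2 ratio of the second to the first was then -0.07, and that of all those genes was 0.02. Over 2-fold lower in the second quantification were 4 members, and 0 were over 2-fold higher. The background was 0.526% lower and 1.21% higher, 1.73% in all.

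Those 4 genes lost nearly all or most of their count. Rps12 went from 19971 counts in the first quantification to 849 in the second in replicate 1, and from 13537 to 503 in replicate 2. Rpl12, whose protein sits at the base of the stalk, went from 16758 to 280 and from 11197 to 213 counts. Rpl10 went from 31211 to 3718 and from 21222 to 2876 counts, and Rpl5 from 4170 to 850 and from 2730 to 624. Their log2 ratios of rescaled TPM were -4.81, -5.79, -3.18 and -1.86. The next member in that direction was Rpl27a at -0.36. In the other direction the largest among measured members were Rpl7l1 at 0.34, Rpl21 at 0.26, Rpl13a at 0.24, Rpl7 at 0.22 and Rpl31 at 0.20, while Rpl3l, at 1 and 3 counts, was at 0.62.

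The counts missing from these genes in the second quantification stood on near-identical copies. A copy was defined, after the values were seen, as a non-member gene that holds at least 50% of a member's coding stretches of 31 bases. There were 273 copies of 67 members, of which 257 were annotated as a processed pseudogene type and 15 as protein-coding. Rps12-ps3 (chr19:59322290-59322783, plus strand, build mm10), annotated as protein-coding, had 305 counts in the first quantification and 19847 in the second in replicate 1. Gm10275, a transcribed processed pseudogene of Rpl12 on chromosome 10, went from 1471 to 18815 counts. Rpl10-ps3, annotated as protein-coding on chromosome 9, went from 1228 to 29860 counts. For Rpl5 the copy already led in the first quantification: Gm15500 (chr7:114705217-114706235, minus strand) held 9987 counts beside 4170 for Rpl5, and 14210 beside 850 in the second. Against these copies, the best-matching coding sequence of Rps12 (396 bases), Rpl12 (495), Rpl10 (642) and Rpl5 (891) had 0 differing bases. Over all annotated coding transcripts of the member, the copy held 100% of the stretches of Rpl12 and Rpl5, 95.8% of those of Rpl10 and 80.9% of those of Rps12. A stretch of each coding sequence is shown beside its copy, from the mm10 transcripts of GENCODE M21, to let the identity be seen. The pair of Rpl35 and Gm2000, a gene annotated as protein-coding on chromosome 1, is added because it has a single differing base in 369, which is in capitals.
Rps12, coding bases 169 to 228: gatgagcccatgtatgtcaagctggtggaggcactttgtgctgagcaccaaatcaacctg
Rps12-ps3: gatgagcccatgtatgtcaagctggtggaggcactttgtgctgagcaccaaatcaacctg
Rpl5, coding bases 416 to 475: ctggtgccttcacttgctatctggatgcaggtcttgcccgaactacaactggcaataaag
Gm15500: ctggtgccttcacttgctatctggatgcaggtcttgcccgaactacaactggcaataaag
Rpl35, coding bases 87 to 146: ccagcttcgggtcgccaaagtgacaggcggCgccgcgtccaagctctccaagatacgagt
Gm2000: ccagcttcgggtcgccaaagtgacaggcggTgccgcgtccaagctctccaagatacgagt

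Summed with their copies, the counts of these genes nearly matched between quantifications. The ratio of the second to the first was 1.02 in replicate 1 for Rps12, 1.05 for Rpl12, 1.04 for Rpl10 and 1.06 for Rpl5. With copies summed, 79 of 81 members lay between 0.9 and 1.2 in each library. The exceptions were Rpl41, at 1.41 and 1.40, which has no copy by this definition, and Rpl7, at 1.23 and 1.36. Rpl5 and its copies summed to 14158 counts in replicate 1, of which copies held 70.6%, so the gene's own 20.6 TPM rests on the rest. Over all members, copies held 3.64% of the summed count of members and copies in replicate 1 and 3.81% in replicate 2 by the first quantification. By the second they held 10.8% and 10.9%. The levels of Rps12, Rpl12, Rpl10 and Rpl5 are therefore uncertain as values of those genes alone.

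**Figure D4:**
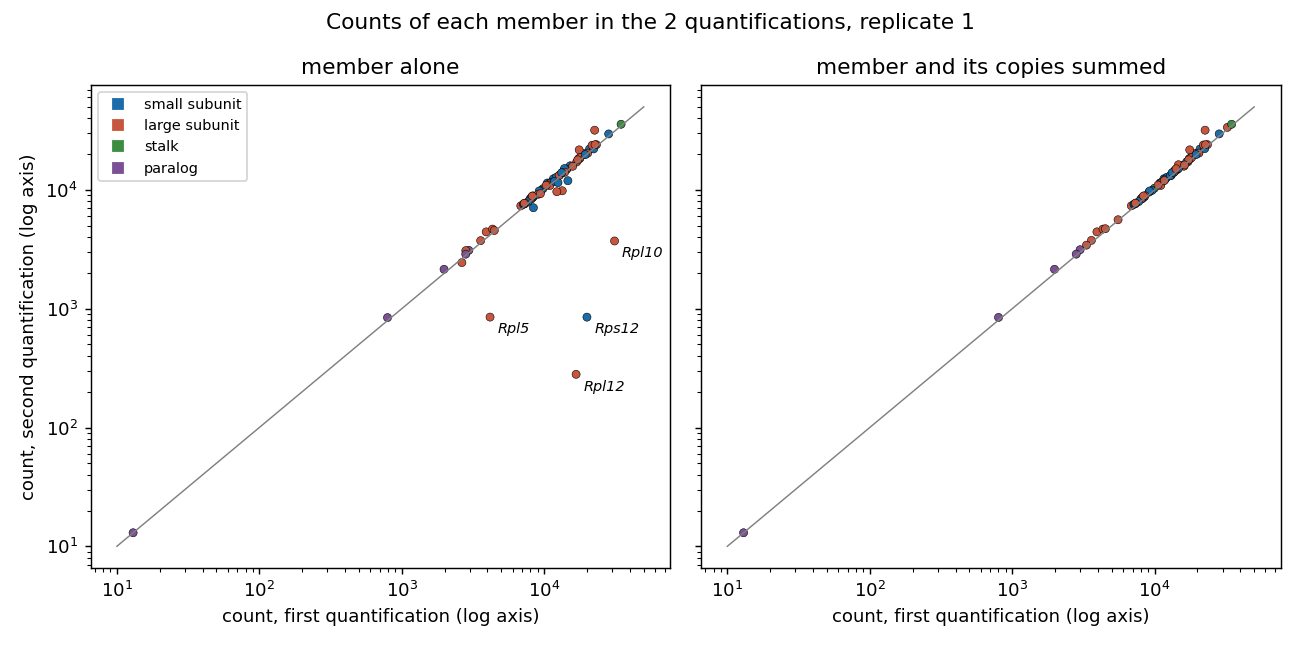
Count of each measured member in replicate 1 by the first (x) and second (y) quantification on log axes, alone on the left and summed with its copies on the right, with a line of equality and colours for role. On the left Rps12, Rpl12, Rpl10 and Rpl5 fall far below the line, and on the right no member does.

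Copies also held much of the count of a few other members in the first quantification. Copies of Rpl27 held 49.1% of the sum in replicate 1 and 45.7% in replicate 2. Gm2000 had 4605 and 2929 counts beside 9080 and 6007 for Rpl35. Copies of Rpl36a held 20.4% and 20.9%, and those of Rpl31 19.6% and 21.2%. In all, 8 members had copies with over 10% of the sum in replicate 1 by the first quantification and 14 by the second. The 5 genes with the largest posterior error, the deposited SD of the estimated count relative to that count, were Rpl5 (1.81%), Rpl27 (1.69%), Rpl36a (1.45%), Rpl31 (0.765%) and Rpl35 (0.625%). The median over members was 0.0466%, and 79 of the 82 members with a value were below 1%. Rps12, Rpl12 and Rpl10 had 0.171%, 0.313% and 0.192%, beside the log2 differences of -4.81, -5.79 and -3.18 between the quantifications. The posterior error did not cover that difference.

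Genes named as pseudogenes of members, with a member's symbol followed by -ps, numbered 298. By the first quantification they held 1.204% of the count of members and named pseudogenes in replicate 1 and 1.278% in replicate 2. By the second the mean share was 6.46%. The 5 highest by mean count were Rps23-ps1 (2116 and 1730 counts), Rpl31-ps8 (2288 and 1508), Rpl27-ps3 (1360 and 886), Rpl10-ps3 (1228 and 891) and Rps16-ps2 (738 and 600). Each of these matched its parent's coding sequence without a differing base where aligned, so their counts are uncertain, though not to the same degree. In replicate 1 the second quantification gave 2679 counts for Rpl31-ps8 and 1262 for Rpl27-ps3, near the first. It gave 5271 for Rps23-ps1, 2502 for Rps16-ps2 and 29860 for Rpl10-ps3.

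Most members' counts lay on protein-coding transcripts. The median share was 99.7% in replicate 1 and 99.4% in replicate 2, and 68 of 81 measured members were over 90% in both libraries, against 79.9% of measured nuclear-encoded protein-coding genes. The members thus stood near the background. A few were far lower. Rps16, a small subunit gene, had 26.6% and 31.6% on its coding transcript, while the retained-intron transcript Rps16-203 had 62.2% and 51.7%. Rps20 had 46.0% and 51.2% on coding transcripts, and its retained-intron transcript Rps20-201 had 53.9% and 48.7%. Rpsa, a small subunit protein also described as a laminin receptor, had 56.8% and 58.1%, with 43.1% and 41.7% on Rpsa-206, annotated for nonsense-mediated decay. Rps23 had 57.7% and 63.6%, with 39.5% and 33.3% on Rps23-203, a processed transcript without a coding frame.

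These divisions changed with the quantification. In the second, Rps16 had 15.7% and 23.4% on coding transcripts, Rps20 42.8% and 47.5%, and Rpsa 37.5% and 38.5%. Copies of Rps16 held 8.08% and 9.52% of the sum of gene and copies in the first quantification, and 26.1% and 28.1% in the second. For Rps23 they held 12.6% and 16.1%, then 30.6% and 32.9%. Counts on copies are not in a gene's shares, and their part in the low coding shares was not tested. The share on retained-intron transcripts was higher in replicate 2 for 49 of the 64 measured members with any such count. The background was 78.1%, so the members did not stand apart in this.

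**Figure D5:**
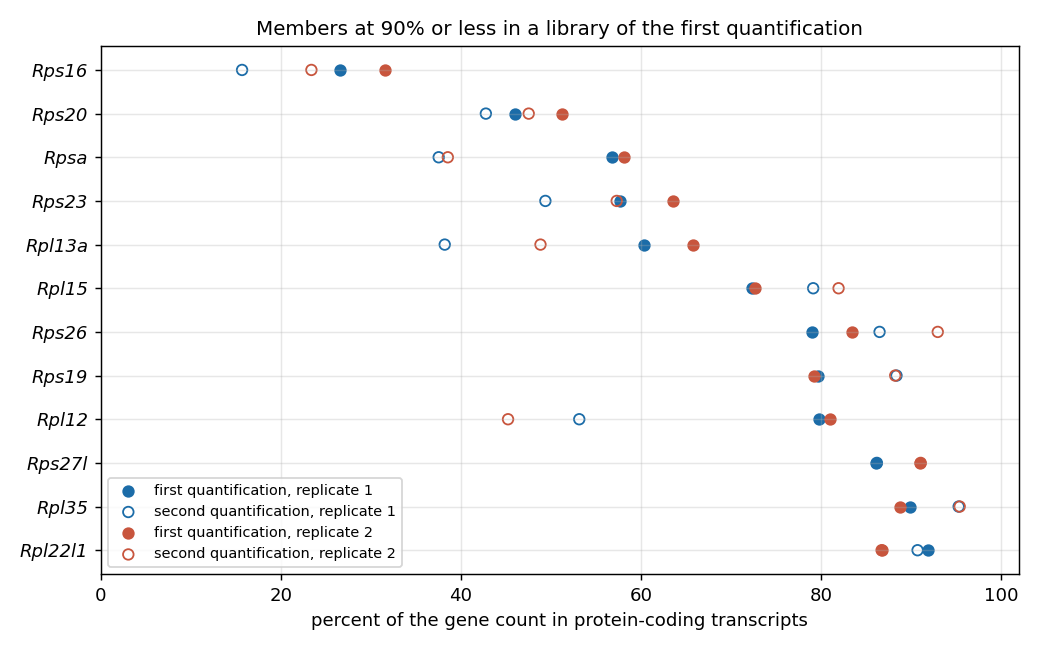
Percent of the gene count on protein-coding transcripts for 12 of the 13 members at 90% or less in a library of the first quantification (1 is not shown), with filled points for the first and open points for the second quantification, blue for replicate 1 and red for replicate 2. Rps16 is lowest at 26.6% and 31.6% in the first quantification. The open points of Rpsa, Rpl13a and Rpl12 lie well left of the filled ones, and those of Rps19, Rps26 and Rpl15 lie to the right. The open points of Rpl12 rest on 280 and 213 counts.

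Rps24 was the abundant member with its count divided among several coding transcripts, a gene chosen for this description after its values were seen. Rps24-210 had 66.1% in replicate 1 and 61.4% in replicate 2, Rps24-201 had 27.0% and 27.4%, and Rps24-202 had 6.62% and 10.6%. In the second quantification Rps24-201 had 37.1% and 40.8%, and Rps24-202 3.72% and 4.20%. The order of these transcripts was the same in both quantifications, and their shares differed more between quantifications than between libraries for Rps24-201.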

How the data were processed

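Total RNA of the cytosolic fraction was sequenced in 2 libraries of 1 group. Per the deposited readme files, tables used build mm10 and annotation M21, the first quantification came from transcriptome alignments and the second directly from reads. Aligner, quantifiers and strand setting: not given in the sources used here. Expected counts are the authors' estimates of fragments, not normalized, per the file headers. The authors scaled the TPM values to a fixed sum per table, as the deposited columns show. The posterior SD, a deposited score per count, was divided by the count.

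Members were found by symbol; the members and lists were chosen with earlier results of these data known. Expected counts were rounded and scaled by TMM (edgeR 4.0.16, R 4.3.3) over genes whose mean count reached 10, with 0.5 added for ratios and 0.1 TPM for log2 levels. DESeq2 1.42.0 size factors were an alternative. Counting intervals are 95% Clopper-Pearson. Other steps used Python 3.11.15, pandas 2.3.3 and scipy 1.17.1, and the ratio calculation was tested on simulated counts. The depth of 55596625 and 50157146 counts leaves counting error small for abundant members. Copies were found with GENCODE M21 transcripts by coding stretches of 31 bases. Named are the 10 highest members by TPM, the 5 lowest core members, all paralogs with partners, the stalk, members below 1 TPM, the 5 extremes of replicate ratio at a mean count of 100 or more, posterior error, quantification difference and coding isoform share, 5 named pseudogenes and the fixed lists; Rps24 and the copies were named after their values were seen. A few listed genes are not reported here. Spike-ins and entries without a versioned gene identifier were left out.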

Additional observations from a re-analysis of the deposited data

How the results depend on the processing

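Over all other settings, 3 of them added after seeing the data, 48 values stayed within a limit and 21 did not. Only the small minus large difference, the replicate ratio and the quantification ratio could change sign, and none did. The limit was the spread between libraries, for counts 1.5-fold, and for the median replicate ratio 0.0409, taken from the counting intervals. For results that are a mean of the 2 libraries, leaving out a replicate moves the value by less than that spread. Such settings stayed within the limit by construction and are no support. For the spread among core members the limit was only 7.78e-05, so very small changes of it fell outside. With the second quantification the members' median was 75.1 TPM in place of 176 TPM, their share of TPM 0.714% in place of 1.72%, the spread among core members 1.253 in place of 0.88, the small minus large subunit difference 0.27 in place of 0.36, the median replicate ratio -0.47 in place of -0.39, members past 1.5-fold 10 in place of 3, and the share of named pseudogenes 6.46% in place of 1.24%. TPM rescaled over nuclear-encoded protein-coding genes gave a median of 813. The spread was 0.88 with posterior mean columns, with rescaled TPM and with a pseudocount of 0.01 TPM, 0.87 with 1 TPM, and 0.77 with copies summed. Library totals over annotated genes or over protein-coding genes gave a median ratio of -0.44 and -0.43, and all 81 measured members were lower in replicate 2 under every scaling run and in the second quantification. Without the filter on counts, Rpl3l and Rpl10l, at 3 or fewer counts a library, had a positive ratio. At 2-fold 0 members passed, and at the lowest fold tried, which was below 1.5-fold, 66 did. The share of all genes past these 2 other folds was not computed, so the 0 and the 66 cannot be set against a background. Raw TPM gave a median quantification ratio of -1.19 in place of -0.07. All pseudogene types by symbol held 1.13%. The cause was not tested. Leaving out a replicate gave 80 members detected each time and ranges of 154 to 196 TPM for the median, 1.52% to 1.93% of TPM, 1.35% to 1.82% of counts, 0.35 to 0.37 for the small minus large difference, -0.11 to -0.06 for the quantification ratio, 0.0445% to 0.0487% for the posterior error, 1.204% to 1.278% for named pseudogenes, 99.4% to 99.7% for the coding share, and 0.88 both times for the spread. No replicate ratio exists without a library. No paired analysis was possible because there was 1 group. Depth limits Rpl39l, Rpl3l and Rpl10l, at 13 or fewer counts.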
